A study of Rattus norvegicus with 10 samples.

Results

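The data set held 10 libraries, and 3 of them, 2 from PBS-treated and 1 from siRNA-treated rats, held much less neuronal RNA and much more myelinating Schwann cell RNA than the other 7. The 3 are called neuron-poor here and the 7 neuron-rich. A library was placed in the neuron-poor class when the mean level of 20 neuronal genes (Tubb3, Rbfox3, Snap25, Uchl1, Prph, Nefl, Nefm, Elavl3, Elavl4, Syt1, Stmn2, Stmn3, Isl1, Pou4f1, Avil, Map2, Thy1, Gap43, Eno2 and Syn1) was below 8.3 on the log2 scale of CPM, a gene's counts scaled to a common library size. The members were thus chosen by measured expression of these genes. PBS replicate 3, PBS replicate 5 and SCN9A_2544 replicate 3 met this rule, and they are written PBS 3, PBS 5 and siRNA 3. The class holds 2 of 5 PBS libraries and 1 of 5 SCN9A_2544 libraries, so it crosses the treatment groups.

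All libraries came from bulk RNA of the L6 dorsal root ganglion of Sprague Dawley rats aged 7 to 8 weeks. Each rat had a catheter implanted in the lumbar intrathecal space, was given meloxicam, and was dosed through the catheter 5 days after that surgery, so the controls share the surgery and the analgesic. The PBS group (n = 5) received vehicle, labelled as a dose of 0 mg. The SCN9A_2544 group (n = 5) received 0.75 mg of a divalent siRNA, 2 linked siRNA duplexes, against Scn9a, which encodes the voltage-gated sodium channel Nav1.7. Both groups carry a time point of 14 days. The labels do not say whether 1 library is 1 animal, or whether one ganglion or a pair was taken, so the spread between libraries may be partly technical, and no group was given another siRNA.

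A dorsal root ganglion holds the cell bodies of sensory neurons, each wrapped by satellite glia, and a zone of nerve fibres in which Schwann cells ensheath the axons. Large axons are each wrapped in compact myelin, which holds proteins such as myelin basic protein (Mbp), while Remak Schwann cells hold bundles of small unmyelinated axons. Neuronal messenger RNA lies mostly in the cell bodies and Schwann cell RNA mostly in the fibre zone and the attached nerve and roots. A CPM value is a share of a library, so a larger share of one cell type lowers the shares of the others, and in bulk tissue fewer cells of a type and less RNA per cell cannot be told apart.

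The rule gave a mean of 7.95 log2 CPM in PBS 3, 8.18 in PBS 5 and 7.68 in siRNA 3, against 8.63 to 9.08 in the neuron-rich libraries (median 9.02). The library just inside the threshold was PBS 5 at 8.18, and the one just outside was PBS 2 at 8.63. Totals of estimated counts ran from 14473503 to 15355259 in the neuron-poor and from 11832376 to 15420006 in the neuron-rich libraries, and 18446 to 18802 genes against 18499 to 18836 had a count, so neither measure set the classes apart. The 50 most abundant genes took 19.9% to 22.5% of the counts in the neuron-poor libraries and 17.0% to 20.1% in the others. Mitochondrially encoded genes took 4.44% to 6.40% and 3.57% to 4.80%. These ranges overlap.

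**Figure D1:**
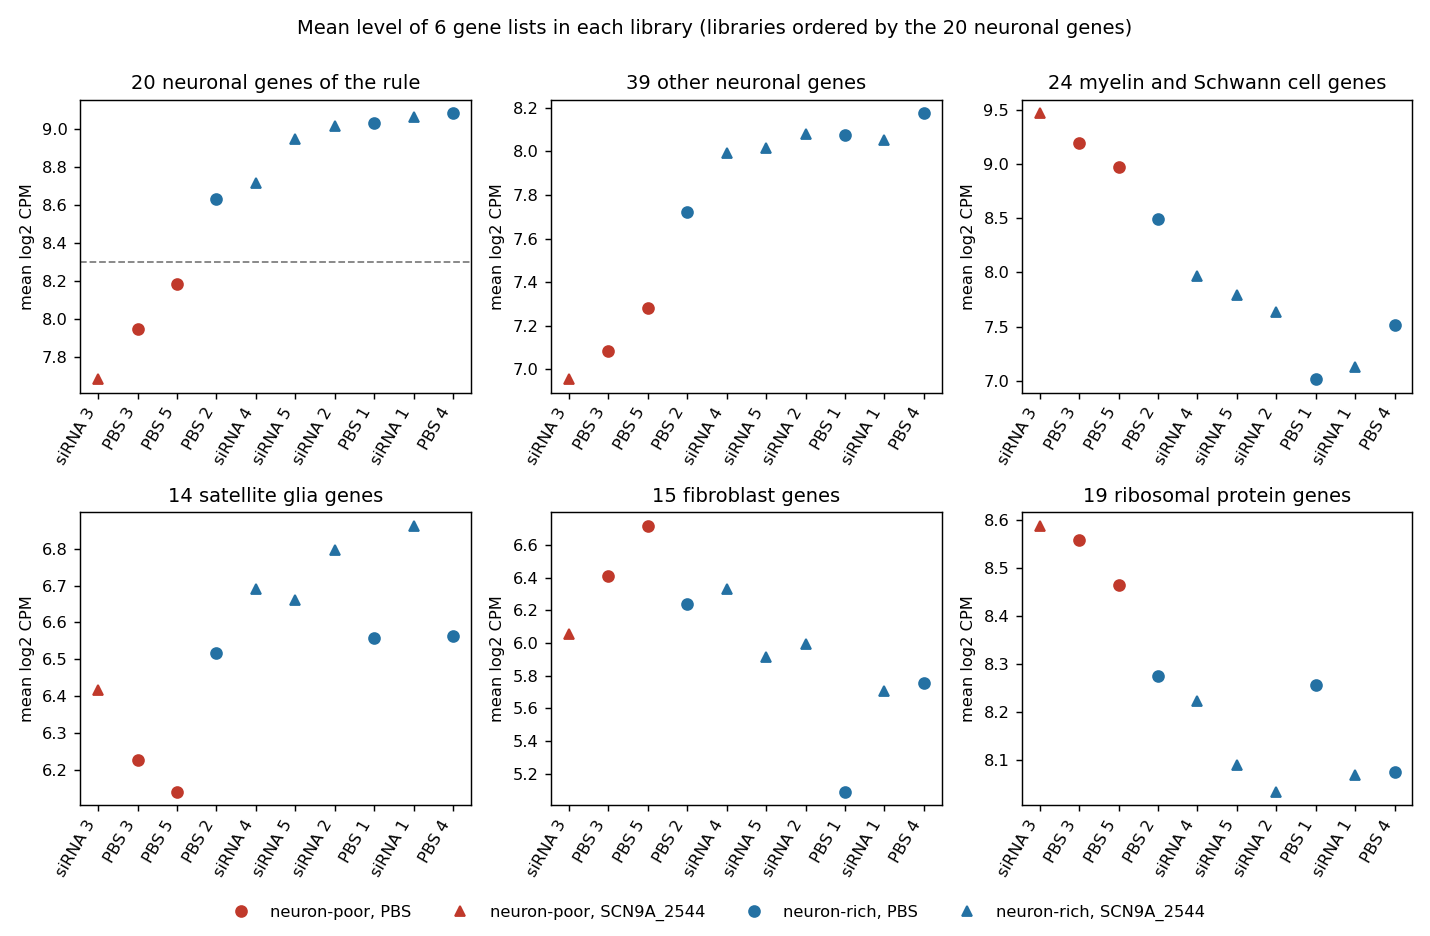
Mean level of 6 gene lists (y axis, log2 CPM) in each of the 10 libraries (x axis, ordered by the 20 neuronal genes of the rule; siRNA stands for SCN9A_2544). Red marks neuron-poor and blue neuron-rich libraries, circles PBS and triangles SCN9A_2544, and the dashed line is the threshold of 8.3. The 24 myelin and Schwann cell genes lie at 8.97 to 9.47 in the 3 neuron-poor libraries and at 7.02 to 8.49 in the other 7.

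The difference between the classes was estimated for 15186 genes with treatment as a covariate, and it is given as a log2 difference (neuron-poor minus neuron-rich) with its standard error (SE). Because the libraries were divided by their neuronal RNA, these differences are descriptions and carry no test. A gene was counted when it differed by at least 2-fold and its 3 neuron-poor values did not overlap the 7 others. Of the tested genes 498 (3.28%) were counted as higher and 629 (4.14%) as lower in the neuron-poor libraries. At any size of difference, 1803 genes (11.9%) lay above all neuron-rich libraries in all 3 neuron-poor ones and 2124 (14.0%) below them. The median difference over all tested genes was 0.00. The counts rested partly on single libraries: without PBS 2 the number counted as higher was 756, without PBS 5 it was 756 with 1174 counted as lower, and without siRNA 3 only 727 of the 1127 counted genes were still counted the same way.

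Neuronal genes lay lower as a broad group, including genes that played no part in the rule. Tubb3, neuronal beta-tubulin and a gene of the rule, measured 1589 CPM in PBS 3, 2014 in PBS 5 and 1622 in siRNA 3, against 2625 to 3846 (median 3538) in the 7 neuron-rich libraries, and the ranges set against neuron-poor values are those of the same 7 throughout. Snap25, a membrane fusion protein of synapses and also in the rule, measured 547 CPM in PBS 3, 855 in PBS 5 and 429 in siRNA 3, against 932 to 1340.5 (median 1268). Neither gene's values overlapped between the classes, although Snap25 in PBS 5 came close to the lowest neuron-rich library. All 20 genes of the rule lay lower, 18 of them without overlap and 9 counted. The rule fixed their mean and not each gene, and these values are no support apart from the rule. Map2 (microtubule-associated protein 2), Syn1 (synapsin I), Nefl (neurofilament light chain) and Pou4f1 (a sensory neuron transcription factor) had the largest counted differences, -1.52, -1.22, -1.17 and -1.14.

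Among 39 other neuronal genes that the rule did not name, 38 lay lower, 28 without overlap, and 11 were counted as lower and none as higher. Their median difference was -0.94, a 1.92-fold lower level, against 0.00 over all genes. The list mean was 7.09 in PBS 3, 7.28 in PBS 5 and 6.96 in siRNA 3, against 7.72 to 8.18 (median 8.05) log2 CPM. The difference between the class means of this list was -0.81 within the PBS libraries and -1.08 within the treated libraries, where a single library is neuron-poor. The lowest neuron-rich library, PBS 2, still lay above every neuron-poor one.

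Snap91, a clathrin assembly protein of synaptic vesicle recycling, measured 79.8 CPM in PBS 3, 101 in PBS 5 and 75.2 in siRNA 3, against 170.3 to 251 (median 213), a difference of -1.36 (SE 0.16). The 3 neuron-poor values of Snap91 were close together. Rph3a, a Rab3 effector on vesicles, differed by -1.27 (SE 0.23), also without overlap. Nefh, the heavy neurofilament chain of large neurons, differed by -1.31 (SE 0.26) but PBS 5, at 3604 CPM, lay inside the neuron-rich range. The one list member above 0 was Celf4, an RNA-binding protein, with 0.16 (SE 0.26) and overlapping values.

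**Figure D2:**
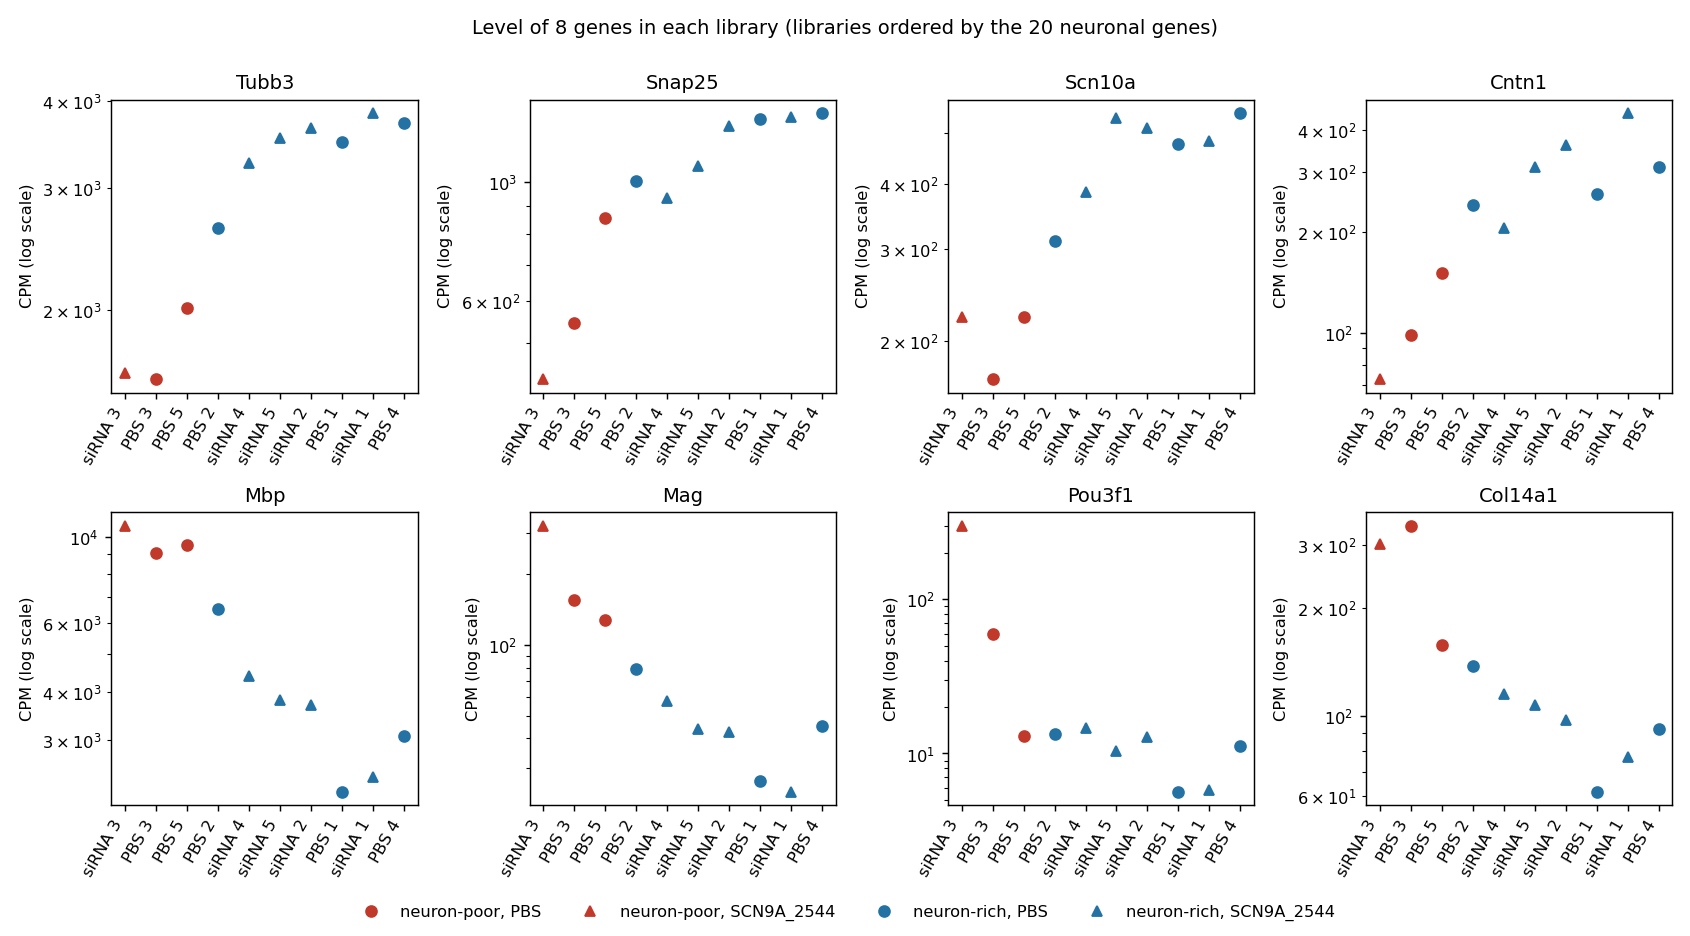
Level of 8 genes (y axis, CPM on a log scale, with its own range in each panel) in each of the 10 libraries (x axis, ordered by the 20 neuronal genes of the rule; siRNA stands for SCN9A_2544). Colours mark the class and shapes the treatment; Tubb3, Snap25, Scn10a and Cntn1 are low, and Mbp, Mag and Col14a1 high, in all 3 neuron-poor libraries, while Pou3f1 spans 12.9 to 301 CPM among those 3.

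Markers of the sensory neuron subtypes were lower by different amounts. The 16 genes of non-peptidergic nociceptors, small neurons of pain and itch, all lay below 0, with a median of -0.80 and 5 counted as lower. Il31ra, a subunit of the interleukin 31 receptor that mediates itch, measured 3.16 CPM in PBS 3, 5.27 in PBS 5 and 4.09 in siRNA 3, against 8.37 to 19.1 (median 12.6), 3.48-fold lower. The 4 others counted were Sst (somatostatin, -1.31), Mrgprd (a receptor of polymodal nociceptors, -1.14), Ret (the receptor of GDNF family ligands, -1.12) and P2rx3 (an ATP-gated channel, -1.02). Gfra2 and Osmr, by contrast, lay at -0.06 and -0.06 with overlapping values.

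The 9 genes of peptidergic nociceptors had a median of -0.64, with 2 counted as lower, among them Chrna3 (a nicotinic receptor subunit of silent nociceptors, -1.38). The peptide genes overlapped between the classes. Calca, which encodes calcitonin gene-related peptide, measured 510.1 CPM in PBS 3, 474 in PBS 5 and 249.8 in siRNA 3, against 388 to 1058 (median 524), so only siRNA 3 lay below the neuron-rich range. Without siRNA 3 the median of this list was -0.28. The 13 genes of large-diameter neurons, which serve touch and proprioception, had a median of -0.38 (-0.25 without siRNA 3), with 1 counted as lower, the fast potassium channel gene Kcnc1. It measured 7.03 CPM in PBS 3, 22.2 in PBS 5 and 17.1 in siRNA 3, against 24.3 to 65.1 (median 39.2). Ntrk3 (the neurotrophin 3 receptor TrkC) and the transcription factor gene Maf lay above all neuron-rich libraries, by 0.65 and 0.66, and Necab2 lay at 0.90 with overlap. Whether the subtype lists differ from one another was not tested.

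Sodium channel genes mostly followed the other neuronal genes. Of 14 tested alpha and beta subunit genes 13 lay below 0, with a median of -0.83, and 4 were counted as lower. Scn10a, which encodes the nociceptor channel Nav1.8, measured 169 CPM in PBS 3, 223 in PBS 5 and 222 in siRNA 3, against 310.3 to 546 (median 483). Scn11a, encoding Nav1.9, measured 121 CPM in PBS 3, 131 in PBS 5 and 132 in siRNA 3, against 185 to 339 (median 247). For both genes the 3 neuron-poor libraries lay close together and below the others in either treatment group. Scn8a, encoding the channel of nodes of Ranvier Nav1.6, and the beta subunit gene Scn4b were the other 2 counted, at -1.55 (SE 0.40) and -1.03 (SE 0.19). Scn7a, a sodium-sensing channel gene expressed by glia, was the one member above 0, at 0.77 (SE 0.23), and was highest in PBS 3, at 2227 CPM.

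Genes for proteins of the node and paranode mostly lay low while myelin genes lay high. Of 13 genes of this list 12 were below 0, with a median of -0.95 (-0.58 without siRNA 3), 7 did not overlap, and 4 were counted as lower. Cntn1, the axonal adhesion protein contactin 1 of the paranode, measured 98.3 CPM in PBS 3, 151 in PBS 5 and 72.7 in siRNA 3, against 205 to 450.1 (median 310.5), 2.83-fold lower. Its partner at the paranode, Cntnap1 (Caspr), differed by -1.04. Cntn2 and Kcnab2, an adhesion protein and a potassium channel subunit beside the paranode, differed by -1.14 and -1.23. Nfasc, of which neurons and Schwann cells make different forms, lay at -0.09 with overlap.

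Genes of myelinating Schwann cells lay higher as a nearly complete group. All 24 were above 0 and 20 were counted as higher, with a median of 1.46, a 2.75-fold higher level. The list mean was 9.19 in PBS 3, 8.97 in PBS 5 and 9.47 in siRNA 3, against 7.02 to 8.49 (median 7.64) log2 CPM, so the classes did not overlap. The difference between class means was 1.41 within the PBS libraries and 1.84 within the treated ones. Mbp measured 9067 CPM in PBS 3, 9526 in PBS 5 and 10664 in siRNA 3, against 2210.5 to 6506 (median 3704), 2.60-fold higher. The highest neuron-rich value belonged to PBS 2.

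Mag (myelin-associated glycoprotein of the inner myelin layer) had the largest counted difference of the list and measured 155 CPM in PBS 3, 128 in PBS 5 and 322 in siRNA 3, against 23.7 to 79.2 (median 43.9), 4.42-fold higher. Egr2 (Krox20, the transcription factor that drives myelination) measured 171 CPM in PBS 3, 75.2 in PBS 5 and 149.7 in siRNA 3, against 16.8 to 73.6 (median 28.2), so PBS 5 barely exceeded the highest neuron-rich library. Cnp (a myelin phosphodiesterase) differed by 1.85 (SE 0.28) and Bcas1 (a protein of myelinating cells) by 1.71 (SE 0.30). Of the other sheath genes, Pmp22 lay at 1.46, Prx at 1.55 and the gap junction gene Gjb1 at 1.46. Differences over the whole list ran from 0.45 to 3.34. Sox10, a transcription factor of all Schwann cells and satellite glia, differed by 1.24.

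The 4 list members that were not counted each had at least 1 neuron-poor library inside the neuron-rich range. Pou3f1 (Oct6, a factor of Schwann cells about to myelinate) measured 59.5 CPM in PBS 3, 12.9 in PBS 5 and 301 in siRNA 3, against 5.63 to 14.7 (median 11.2), so its difference of 3.34 came from siRNA 3 and PBS 3. Drp2, a protein of the outer Schwann cell membrane, differed by 1.06 and was highest in PBS 5. Pmp2, a fatty acid binding protein of myelin, was also highest in PBS 5, at 2560.4 CPM, against 815 in PBS 3 and 832 in siRNA 3. S100b, a calcium-binding protein of Schwann cells and other glia, differed by 0.45.

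Other glial lists lay nearer to 0. The 14 satellite glia genes had a median of -0.34, 10 below 0, and none was counted in either direction. Apoe, the lipid carrier that satellite glia make in large amounts, measured 3161 CPM in PBS 3, 2564 in PBS 5 and 3974 in siRNA 3, against 3670.2 to 4667 (median 4152). The connexin 43 gene Gja1, the glycolytic gene Aldoc and the adhesion gene Cadm1 lay below all neuron-rich libraries, at -0.73, -0.85 and -0.38. Sparcl1, which vascular cells also make, lay above them at 0.98, highest in PBS 3 at 722 CPM. Of 6 Remak Schwann cell genes 1 was counted as higher, Gfap at 1.41 (SE 0.35), while Ngfr, the p75 neurotrophin receptor, lay at -0.67. The Remak median of 0.41 was 0.12 without PBS 3. Of 4 tested genes of repair Schwann cells, the state after nerve injury, 1 was counted, the growth factor gene Btc, at 2.67 CPM in PBS 3, 1.60 in PBS 5 and 3.88 in siRNA 3, against 0.476 to 1.48 (median 0.998).

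Lipid synthesis genes, whose products Schwann cells need for myelin, lay near 0. The 22 cholesterol synthesis genes had a median of 0.07 and the 15 fatty acid synthesis genes one of 0.10 (0.22 and 0.20 without siRNA 3), and none of either list was counted. Hmgcs1, an early enzyme of the sterol pathway, measured 1389.8 CPM in PBS 3, 1429 in PBS 5 and 772 in siRNA 3, against 734 to 1073 (median 864), with siRNA 3 among the lower libraries. Scd2 and Elovl1, a desaturase and an elongase, lay above all neuron-rich libraries at 0.61 and 1.00, whereas Scd and Elovl5 lay below them at -0.65 and -0.59.

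Vascular genes lay modestly higher, and connective tissue genes were mixed. The 10 mural cell genes had a median of 0.67, with 9 above 0 and 2 counted, Pdgfrb (the receptor that marks pericytes) and Des (desmin). Pdgfrb measured 109 CPM in PBS 3, 109.7 in PBS 5 and 159 in siRNA 3, against 41.2 to 70.8 (median 62.9), and Des differed by 1.28. Endothelial genes had a median of 0.30 (0.46 without PBS 2), 14 of 15 above 0, and none was counted; Vwf (von Willebrand factor) and Ptprb (an endothelial phosphatase) differed by 0.68 and 0.30. The 15 fibroblast genes had a median of 0.95 (0.61 without PBS 5), and 2 were counted, Col14a1 (a collagen of connective tissue sheaths) and Mfap5 (a microfibril protein). Col14a1 measured 339 CPM in PBS 3, 158 in PBS 5 and 301 in siRNA 3, against 61.6 to 138 (median 97.5), and Mfap5 differed by 1.10. The difference between class means of the fibroblast list was 0.87 within the PBS and 0.07 within the treated libraries, and siRNA 3, at 6.05 log2 CPM, lay inside the neuron-rich range of 5.09 to 6.33. Its genes were not uniform. Pi16, Dpt and Fbln1 lay at -1.66, -1.37 and -0.84, below 0. The perineurium list, with 4 genes tested, had a median of 0.36 (0.14 without PBS 5) and held no counted gene. Its class means differed by 0.44 within the PBS and by -0.51 within the treated libraries. Itgb4, an integrin also made by Schwann cells, differed by 0.74 and Slc2a1 by 0.18.

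**Figure D3:**
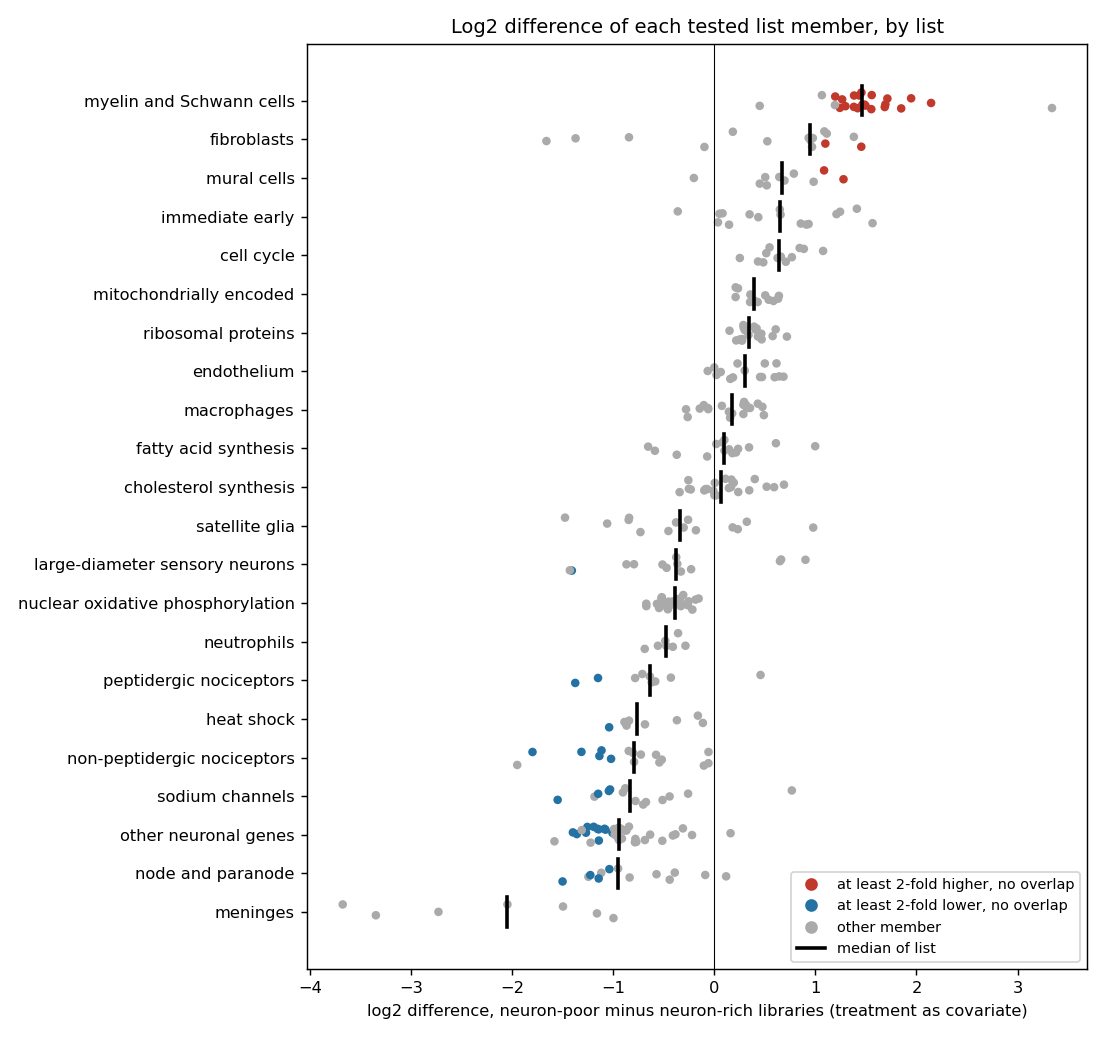
Log2 difference between neuron-poor and neuron-rich libraries (x axis, treatment as covariate) for each tested member of 22 gene lists (y axis). Red and blue points are at least 2-fold different without overlap, grey points are other members, and black bars are list medians, which run from -2.05 for meningeal genes to 1.46 for myelin and Schwann cell genes.

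Tissue next to the ganglion also differed between the libraries, beside the neuronal and myelin genes. All 7 meningeal genes lay below 0, with a median of -2.05 (-1.06 without PBS 4), and none was counted. PBS 2, at a list mean of 1.65 log2 CPM, lay among the neuron-poor libraries, and PBS 5, at 2.33, was the highest of those 3. Ptgds, the prostaglandin D synthase of the leptomeninges, measured 11.5 CPM in PBS 3, 86.8 in PBS 5 and 27.1 in siRNA 3, against 30.7 to 574 (median 263). The part of meningeal tissue in the class difference was not tested. Skeletal muscle genes had a median of -1.0 (-0.07 without PBS 2) with 6 genes tested, none counted and overlapping list means (2.60 in PBS 3, 0.72 in PBS 5 and 0.48 in siRNA 3, against 0.54 to 4.19 (median 0.75) log2 CPM). Acta1 and Ckm, muscle actin and creatine kinase, differed by -1.13 and -0.87 with SEs of 0.60 and 1.13. Adipocyte genes were near 0, with a median of 0.09 over 4 tested genes (0.32 without siRNA 3; Gpd1 0.74, Cfd 0.20), and 7 other adipocyte genes, Adipoq and Plin1 among them, were too low to test, summing to 0.601 to 1.76 CPM in the neuron-poor and 0.583 to 5.38 CPM in the neuron-rich libraries.

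Most defining markers of neurons from outside sensory ganglia and of central glia were at or near 0 in both classes, with the choline transporter gene Slc5a7 as an exception. The 8 untested genes of motor and autonomic neurons, Chat, Mnx1 and Th among them, summed to 0.868 to 1.84 CPM in the neuron-poor libraries and 0.256 to 1.26 CPM in the others. Slc5a7, the one tested member, measured 4.07 CPM in PBS 3, 2.34 in PBS 5 and 1.57 in siRNA 3, against 2.7 to 26.1 (median 4.08), a difference of -1.07 (SE 0.77). The highest value was that of SCN9A_2544 replicate 4, with the next library at 5.89 CPM. The 6 untested genes of oligodendrocytes and astrocytes, including Mog, Mobp and Aqp4, summed to 1.11 to 3.91 and 1.06 to 2.37 CPM, while Mbp was between 2210 and 10664 CPM. Only Mbp and Cldn11, which meningeal cells also express, could be tested on that list, and Cldn11 lay at -1.23 (SE 0.55).

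Blood and immune cell genes did not separate the classes. The 19 macrophage genes had a median of 0.18 (0.30 without PBS 2), with none counted; Cd74 (the invariant chain of class II antigen presentation) and Laptm5 differed by -0.14 and 0.49. Neutrophil genes (7 tested, median -0.47), B cell and cytotoxic cell genes (4 tested, -0.82) and erythroid genes (4 tested, -0.89) held no counted gene. The neutrophil list mean was 3.94 in PBS 3, 2.34 in PBS 5 and 5.37 in siRNA 3, against 3.52 to 5.93 (median 4.74) log2 CPM. PBS 5 was the lowest of all 10 libraries and siRNA 3 lay in the upper part of the neuron-rich range. Without PBS 5 the neutrophil median was 0.12, and without siRNA 3 it was -2.10, so its sign depended on which library was included. The medians of the B cell and erythroid lists were -2.23 and -1.71 without siRNA 3. S100a9, a calprotectin subunit of neutrophils, measured 108 CPM in PBS 3, 36.1 in PBS 5 and 175 in siRNA 3, against 70.9 to 321 (median 114); Cd79a, a B cell receptor component, lay at -0.97 and the alpha-globin gene Hba-a2 at -0.90.

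Ribosomal and respiratory chain genes differed little but in 1 direction within each list. All 19 ribosomal protein genes lay above 0, 13 without overlap, with a median of 0.34, a 1.26-fold higher level, and none was counted. All 24 nuclear genes of oxidative phosphorylation lay below 0, 10 without overlap, with a median of -0.39. The 13 mitochondrially encoded genes went the other way, all above 0 with a median of 0.40, but each of them overlapped. Mt-co1, a subunit of cytochrome oxidase, measured 17007 CPM in PBS 3, 24184 in PBS 5 and 17618 in siRNA 3, against 13633 to 17904 (median 17282), so PBS 5 alone exceeded the neuron-rich range. Its nuclear partner Cox4i1 lay at -0.45 and Atp5f1b, of the ATP synthase, at -0.52.

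Heat shock genes were lower, with all 8 below 0, a median of -0.76 (-0.50 without siRNA 3) and 1 counted, Hspb1 (a small heat shock protein abundant in sensory neurons), at 109 CPM in PBS 3, 157 in PBS 5 and 148 in siRNA 3, against 214 to 348 (median 308). Of 12 nerve injury genes 2 were counted as lower, the neuropeptide genes Npy and Gal. In both, 1 or more neuron-rich libraries were far above the rest: Npy measured 1.69 CPM in PBS 3, 0.667 in PBS 5 and 1.97 in siRNA 3, against 2.75 to 98.5 (median 4.56), and Gal 1.12 CPM in PBS 3, 1.33 in PBS 5 and 1.63 in siRNA 3, against 1.73 to 60.6 (median 2.65). The high values were those of SCN9A_2544 replicates 1, 4 and 5 (Npy 35.4, 98.5 and 14.7 CPM, Gal 7.36, 60.6 and 10.8 CPM). The neuron-rich PBS libraries reached 4.36 CPM for Npy and 2.56 CPM for Gal. Class differences of Npy and Gal were -1.57 and -0.77 within the PBS libraries, and -3.39 and -2.62 within the treated ones. The SEs of the Npy and Gal differences were each 1.04, and the list median of -0.51 was -0.00033 without siRNA 3. Atf3, a transcription factor of injured neurons, differed by 1.18 (SE 0.43) with overlap.

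Housekeeping, interferon-stimulated, Hox and sex-linked genes were also compared. Over all tested genes 3.28% were counted as higher and 4.14% as lower, and lists this short cannot be told apart from those shares. Housekeeping genes had a median of -0.11, with Actb at 0.32 and Gapdh at -0.41, and interferon-stimulated genes one of 0.53 (0.05 without siRNA 3), with none counted in either. Of 14 Hox genes, which set the position of a segment along the body axis, 1 was counted as lower, Hoxb8 at 1.12 CPM in PBS 3, 2.47 in PBS 5 and 2.86 in siRNA 3, against 3.71 to 12.1 (median 5.70). The list median was -0.53, and neurons are among the cells that express these genes. The Y chromosome gene Eif2s3y was detected in each library (67.0 CPM in siRNA 3, and 76.6 CPM or more in the other 9). The 4 tested sex-linked genes had a median of 0.06 and ran from -1.19 to 0.65, with 2 above and 2 below 0.

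Beyond these lists, the 12 largest higher differences among counted genes of at least 5 CPM on average belonged to genes of varied roles. Igf2bp2, an RNA-binding protein of growing cells, led with 2.50 (SE 0.35). Gjc3, the connexin 29 gene of myelinating glia, measured 176 CPM in PBS 3, 59.6 in PBS 5 and 278 in siRNA 3, against 22.8 to 44.0 (median 30.1), 5.38-fold higher. Ctnnal1, an alpha-catenin-like protein, was evenly high, at 444 CPM in PBS 3, 432 in PBS 5 and 534 in siRNA 3, against 94.9 to 216 (median 114). P2rx7, an ATP-gated channel of immune cells and glia, lay at 1.93, and Emid1, an extracellular matrix protein, at 2.04. The other 7 were Sult5a1 (2.17), Prrg4 (1.99), Depdc7 (1.95), Cfap100 (1.94), Gask1b (1.93), Tmem45al (1.89) and Plekha7 (1.87). In Igf2bp2, Gjc3, Emid1, P2rx7 and Plekha7 siRNA 3 or PBS 3 was far above PBS 5, so the size of those differences varied within the class.

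The 12 largest lower differences outside the lists included ion channel subunits. Chrna7, a nicotinic receptor subunit, measured 3.23 CPM in PBS 3, 16.8 in PBS 5 and 6.47 in siRNA 3, against 18.4 to 34.4 (median 32.2). Kcnq5, a subunit of the M-type potassium channel, measured 9.98 CPM in PBS 3, 22.2 in PBS 5 and 14.3 in siRNA 3, against 36.9 to 69.9 (median 42.1), 3.30-fold lower. Grm8, a metabotropic glutamate receptor, lay at -1.69, Zdhhc22, a palmitoyltransferase, at -1.90, Sez6l at -1.70, Frmpd3 at -1.71 and Trappc3l at -1.71. The peptide gene Cartpt lay at -2.15 (SE 1.06). The largest belonged to Cilp, a cartilage matrix protein, at -2.82 (SE 0.97), and to Mfap4, a microfibril protein, at 4.07 CPM in PBS 3, 5.54 in PBS 5 and 1.97 in siRNA 3, against 5.99 to 43.7 (median 21.4). The myosin gene Myh8 lay at -1.70.

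The 3 neuron-poor libraries were not alike among themselves. Of the 498 genes counted as higher, siRNA 3 was the highest of the 3 in 279, PBS 3 in 162 and PBS 5 in 57. Of the 629 counted as lower, siRNA 3 was the lowest in 303, PBS 3 in 281 and PBS 5 in 45. PBS 5, the library nearest the threshold, was the most extreme of the 3 in the fewest genes.

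The library siRNA 3 lay at least 2-fold above all 9 others in 147 genes, against 18 genes in PBS 3, 15 in PBS 5 and 2 to 33 in the neuron-rich libraries. In the other direction PBS 3 led, with 112 genes at least 2-fold below all 9 others, against 89 in PBS 5, 81 in siRNA 3 and 6 to 70 in the neuron-rich libraries. The genes named next for siRNA 3 were picked after their values were seen. Csrp2, a LIM protein of muscle and activated stromal cells, measured 18.3 CPM in PBS 3, 7.54 in PBS 5 and 169 in siRNA 3, against 6.64 to 10.3 (median 8.37). Thbs2, a matrix protein, measured 68.0 CPM in PBS 3, 146 in PBS 5 and 545 in siRNA 3, against 18.5 to 103 (median 40.7), and Col7a1 8.22 CPM in PBS 3, 2.80 in PBS 5 and 86.0 in siRNA 3, against 2.73 to 17.0 (median 4.90). The chemokine gene Cxcl14 stood at 19.8 CPM in siRNA 3, and the imprinted noncoding gene H19 at 161 CPM. The 12 cell cycle genes had a list mean of 2.47 in PBS 3, 1.07 in PBS 5 and 3.45 in siRNA 3, against 1.51 to 2.46 (median 1.78) log2 CPM, so the 3 libraries spanned more than the whole neuron-rich range. Top2a, a topoisomerase of dividing cells, measured 20.7 CPM in PBS 3, 3.0 in PBS 5 and 36.2 in siRNA 3, against 5.05 to 16.2 (median 7.89). The list median of 0.64 was -0.13 without siRNA 3 and 1.06 without PBS 5.

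Immediate early genes, which cells switch on quickly when stimulated, were also highest in siRNA 3, with a list mean of 3.65 in PBS 3, 3.57 in PBS 5 and 4.87 in siRNA 3, against 3.10 to 3.96 (median 3.63) log2 CPM. Fos measured 9.06 CPM in PBS 3, 6.81 in PBS 5 and 48.5 in siRNA 3, against 4.10 to 12.5 (median 7.55). In PBS 3 and PBS 5 it stayed inside the neuron-rich range. Of the 16 genes 15 lay above 0 and 0 were counted, so Fos does not stand for the whole list. The median of the 16 genes was 0.65, and 0.19 without siRNA 3.

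PBS 3 stood apart by Hoxc11, a homeobox gene of the caudal segments, which measured 26.5 CPM in PBS 3, 0.534 in PBS 5 and 1.23 in siRNA 3, against 0 to 2.56 (median 0.219). No other library exceeded 2.56 CPM. Hoxd10, a neighbour in that code, was also highest in PBS 3, at 9.41 CPM against 0 to 4.67 in the neuron-rich libraries. PBS 5 stood apart by Tbx18, a transcription factor of mural and stromal cells (37.8 CPM, 3.57 to 12.9 in the neuron-rich libraries), by Col24a1 and Il33 (202 and 232 CPM), and by the highest fibroblast list mean, 6.72 log2 CPM.

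**Figure D4:**
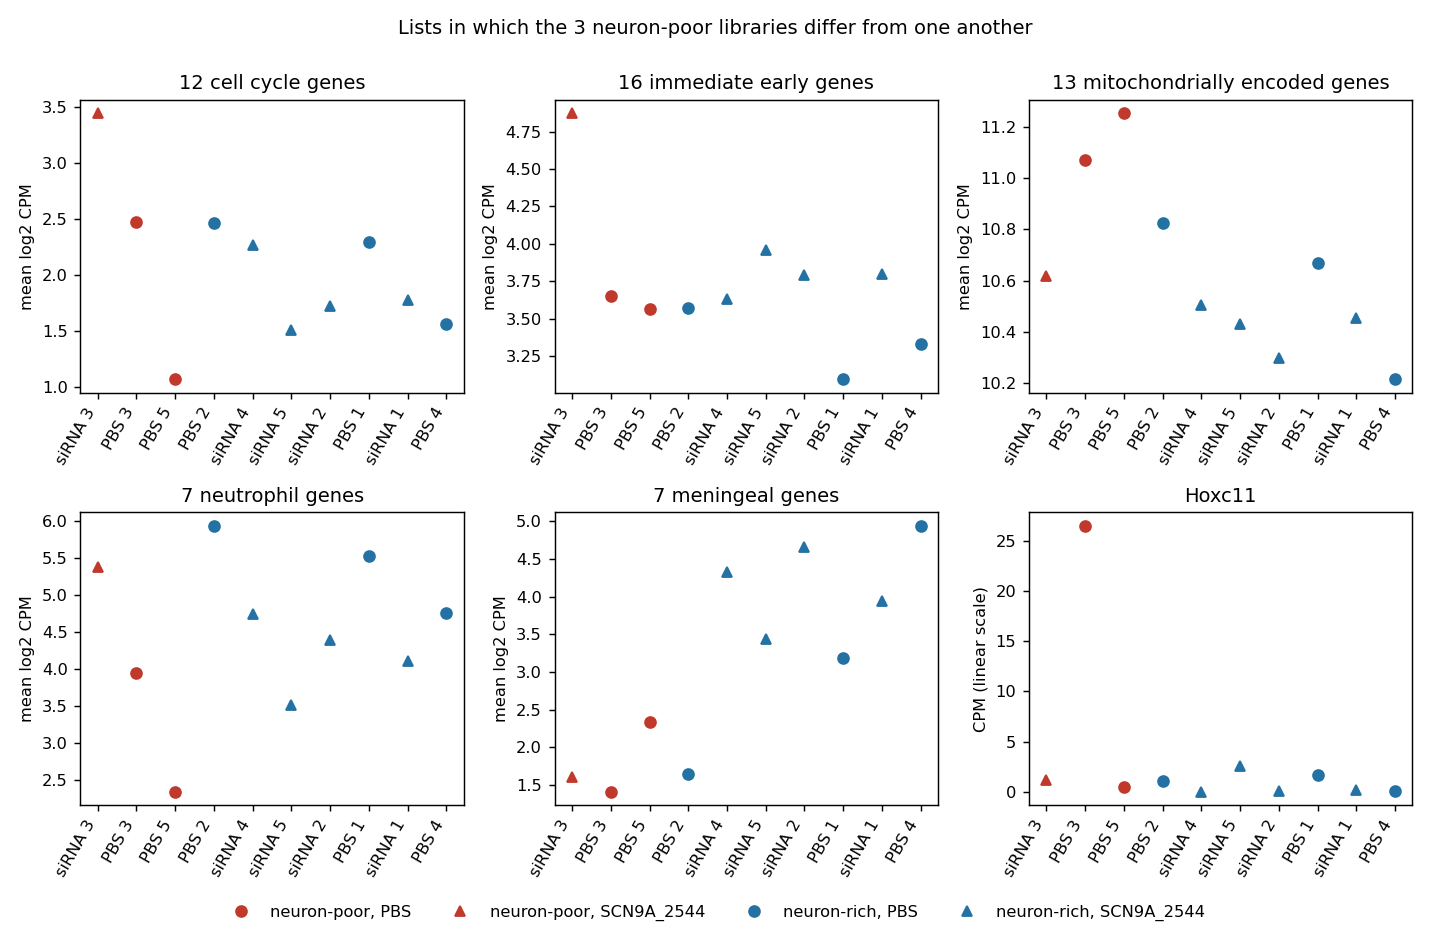
Mean level of 5 gene lists (y axis, log2 CPM) and the level of Hoxc11 (y axis, CPM on a linear scale) in each of the 10 libraries (x axis, ordered by the 20 neuronal genes of the rule; siRNA stands for SCN9A_2544). Red marks the neuron-poor libraries, which lie at opposite ends of the cell cycle panel (1.07 in PBS 5, 3.45 in siRNA 3), while Hoxc11 reaches 26.5 CPM in PBS 3 alone.

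Within the neuron-rich class, PBS 2 lay nearest to the neuron-poor libraries. It was the highest of the 7 in 294 of the 498 genes counted as higher, in 21 of the 24 myelin genes, and the lowest in 283 of the 629 counted as lower. SCN9A_2544 replicate 4, the next library by the rule, held 113, 3 and 230 of these. The remaining 5 libraries held 11 to 31 of the higher and 13 to 42 of the lower genes. The counted genes were selected by the class split, and PBS 2 had the lowest rule mean of the 7. This order therefore partly restates the rule. By the rule's mean PBS 2 was at 8.63 and the nearest neuron-poor library, PBS 5, at 8.18. Whether the classes are steps of a graded measure was not tested.

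The rule used levels of neuronal genes and not the treatment labels, so the treatment comparison was tested. Its calls depended on whether and how the class entered the fit. Scn9a, the siRNA's target, was lower in every treated library than in any PBS library. It measured 257, 176 and 171 CPM in the neuron-rich and 137 and 132 CPM in the neuron-poor PBS libraries. It measured 103, 83.8, 97.4 and 97.7 CPM in the neuron-rich treated libraries and 44.6 CPM in siRNA 3. In each treatment group the neuron-poor libraries were the lowest.

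Within classes, Scn9a fell by 1.21 on the log2 scale (two-sided exact permutation of treatment labels within classes, p = 0.00952, the smallest of 105 arrangements). In the neuron-rich libraries alone the difference was -1.05 (exact permutation p = 0.0286, the smallest of 35). Measured against the mean of the 39 other neuronal genes, Scn9a lay at -1.47 log2 in siRNA 3, inside the range of -1.69 to -1.36 of the neuron-rich treated libraries. On that scale PBS 3 was at 0.01 and PBS 5 at -0.24, against -0.75 to -0.07 in the neuron-rich PBS libraries. Relative to other neuronal genes the within-class difference was -1.18 (exact permutation p = 0.00952). The low CPM of siRNA 3 thus came with low levels of the other neuronal genes.

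**Figure D5:**
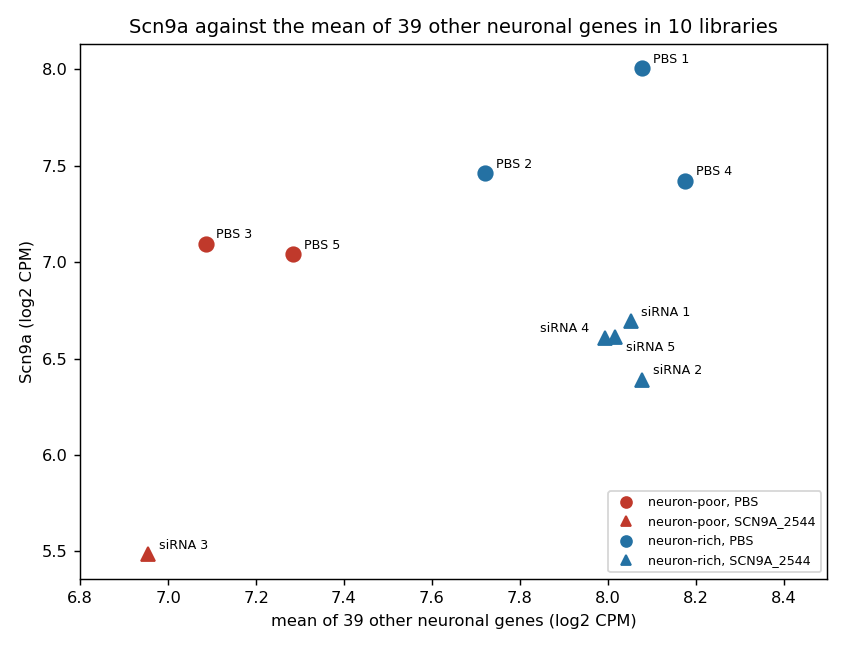
Scn9a level (y axis, log2 CPM) against the mean of 39 other neuronal genes (x axis, log2 CPM) in 10 libraries, coloured by class and shaped by treatment (siRNA stands for SCN9A_2544). Each treated library (5.48 to 6.69) lies below each PBS library (7.04 to 8.01), and siRNA 3 is the lowest on both axes.

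Adding the class to the model changed how much of the spread between libraries the treatment test had to contend with. With treatment alone, edgeR's quasi-likelihood test called 0 of 15186 genes at a Benjamini-Hochberg adjusted p under 0.05 (642 at an unadjusted p under 0.05), and Scn9a had a log2 difference of -1.03 (SE 0.25, adjusted p = 0.963). With class as a covariate it called 2 genes (0.0132%), 1052 at an unadjusted p under 0.05, and the median SE over genes was 0.173 in place of 0.223. The biological coefficient of variation, the spread between libraries beyond counting, was 22.4% in place of 30.0%. The class was made from expression in these same libraries, so part of this fall follows from how it was chosen. Adjusted p-values with class as a covariate depend on that choice. Scn9a fell by 1.21 (SE 0.15, 95% interval -1.53 to -0.89, edgeR adjusted p = 0.0299), and Socs3, a feedback inhibitor of cytokine signalling, rose by 1.35 (SE 0.17, adjusted p = 0.0299).

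These calls rested on few libraries. For Scn9a the difference stayed between -1.31 and -1.10 when each library was left out in turn. Its edgeR adjusted p then ran from 0.0326 to 0.17, and the call was kept only without PBS 2, PBS 4 or SCN9A_2544 replicate 4. Socs3 was called only without PBS 4 or SCN9A_2544 replicate 4. Over all settings tried the adjusted p of Scn9a ran from 9.26e-11 with DESeq2 to 0.221. DESeq2 called 27 genes higher and 2 lower with class as a covariate.

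Socs3 measured 5.59 to 10.5 CPM in the 5 PBS libraries and 14.6 to 35.3 CPM in the treated ones, with siRNA 3 the highest, so the groups did not overlap. Over all 15186 tested genes, 101 (0.665%) had treatment groups that did not overlap. Within classes the log2 difference of Socs3 was 1.35 (exact permutation p = 0.00952). In the neuron-rich libraries it was 1.12 (exact permutation p = 0.0286, the smallest of 35). Socs3 was named for its small edgeR p in these same libraries, so the permutation p-values are no separate support for it. The immediate early genes were also highest in siRNA 3, and their part in the Socs3 difference was not tested. Egr1 and Stac2, an adaptor of voltage-gated calcium channels, had the next smallest p-values and did not pass, each with an edgeR adjusted p of 0.108. Stac2 measured 1.60 ± 0.50 CPM (SD, n = 5) in PBS and 16.6 ± 13.2 CPM (SD, n = 5) in treated libraries, without overlap.

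No other sodium channel gene passed with class as a covariate. Scn10a differed by 0.13 (SE 0.16, 95% interval -0.23 to 0.48, edgeR adjusted p = 0.858) and Scn11a by -0.07 (SE 0.17, 95% interval -0.45 to 0.30, adjusted p = 0.928). Without the class the SEs of these differences were 0.33 and 0.32. Intervals of this width leave room for moderate changes in either direction.

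Leaving out the neuron-poor libraries altogether gave 3 PBS against 4 treated libraries. There edgeR called 1 of 15395 genes (0.00650%), 522 at an unadjusted p under 0.05, with a median SE of 0.192. The values of the 2 treatment groups did not overlap in 577 genes (3.75%). Scn9a had a log2 difference of -1.10 (SE 0.16, edgeR adjusted p = 0.227) and did not pass, although its estimate moved little. DESeq2 called 16 genes higher and 21 lower, Scn9a among the latter (adjusted p = 6.36e-06), and over all settings tried the adjusted p of Scn9a ran from that value to 0.904.

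The one gene called there carries the identifier ENSRNOG00000070035 and no symbol. Its call was lost without PBS 1, where no gene was called, and without PBS 4, where the defensin gene RatNP-3b was called in its place. It measured 4.27 to 8.46 CPM in all 5 PBS libraries and 5.11 CPM in siRNA 3, and had no count in the other 4 treated libraries. Against a limit of 3 counts per library, 0.219 CPM at most, it was at least 31.5-fold lower in those 4 than in the neuron-rich PBS libraries (6.90 ± 1.36 CPM, SD, n = 3). The neuron-poor treated library thus differed from the other treated ones, and with 1 such library a difference of the treatment effect between classes was not tested.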

How the data were processed

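Poly(A) RNA libraries were sequenced as paired reads, per the labels' protocols. The authors deposited 1 table of estimated counts, without normalization. The build mRatBN7.2 and the tools STAR 2.7.10a and DESeq2 1.44.0 come from the submitters' processing notes. How reads were counted, with which annotation and strand setting, is not given in the sources used. Counts, which the design had assumed to be whole, were rounded. Low genes were removed by filterByExpr (minimum count 10 and total 15), which left 15186 of 30560 genes. Libraries were scaled by TMM and fitted with edgeR 4.0.16 (quasi-likelihood, R 4.3.3). Each SE is the absolute log2 difference divided by the square root of the quasi-likelihood F. The rule's values are log2 CPM from that scaling, with a prior count of 2. Libraries were grouped for treatment by their labels. The classes, members and gene lists (37 lists, 488 of 512 genes with a row, 447 tested) were chosen with earlier results of these data known, so the class contrast carries no test. Treatment was tested with and without class as a covariate and in the neuron-rich libraries, with Benjamini-Hochberg adjustment, and tested on simulated data. No library repeated another (chi-square per gene 7.7 to 218 over 45 pairs).

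Named genes were Tubb3, Snap25 and Mbp, up to 4 counted members of each list with the largest difference (2 with the highest level where none was counted), the 12 largest higher and lower counted genes outside the lists with a mean of at least 5 CPM, each sodium channel, and the 10 smallest p-values of each treatment fit. Genes named beyond these were chosen after their values were seen, and the values of some genes within the rule are not reported here. Alternatives were DESeq2 1.42.0 and its size factors, no filter, a replicate block, leaving out each library, other fold limits, no treatment covariate, and the mean of the 20 genes as covariate. Of the tested gene names 79 belonged to several identifiers, and near-identical genes such as Hba-a2 and Hba-a3 may share reads. Depth is given with the results and covers counting error only.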

Additional observations from a re-analysis of the deposited data

Results flagged for a closer look

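Of 50 sets of values, 7 held a library whose gap to its nearest neighbour took up an unusually large part of its group's range (Dixon's criterion). Chance gives about 1 in 20 for separate sets. These sets share libraries, and Scn9a and Socs3 were also the treatment calls, so that rate is only a rough guide. Among the treated libraries siRNA 3 (SCN9A_2544 replicate 3, the neuron-poor one) stood apart in 3 genes, with Scn9a at 5.48, Socs3 at 5.15 and Tubb3 at 10.66 log2 CPM, against nearest values of 6.39, 4.10 and 11.67. Tubb3 is a gene of the rule that made siRNA 3 the only neuron-poor treated library, so its gap restates that choice and the chance rate does not apply to it. Scn9a in siRNA 3 was low together with the other neuronal genes, so the chance rate does not apply to its gap either. Among the neuron-rich libraries, PBS 2 stood apart in the mean of the 39 other neuronal genes, at 7.72 log2 CPM with the nearest library at 7.99. PBS 2 was also the lowest of the neuron-rich libraries by the rule's mean. PBS 1 stood apart in fatty acid synthesis genes (7.50, nearest 7.69) and mural cell genes (2.82, nearest 3.57). SCN9A_2544 replicate 4 stood apart in Hox genes, at 1.92 log2 CPM with the nearest library at 2.71.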

How the results depend on the processing

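Deviations of same-numbered libraries correlated at 0.379, 0.005, 0.567, -0.00625 and 0.051 for replicates 1 to 5. The same number was the best correlated partner in replicates 1 and 3, and both libraries of replicate 3 are neuron-poor. Whether the labels' replicate numbers pair the libraries cannot be settled from these few correlations. With the numbers as a replicate block, only replicate 5 compares the classes within a number across treatment, and 290 genes were counted as higher and 331 as lower, with 1112 of the 1127 counted genes on the same side of 0. List medians under the block were -0.72 for the 20 genes of the rule, -0.78 for other neuronal genes, -0.0936 for large-diameter neurons and -0.25 for peptidergic nociceptors. They were -0.54 for the node, 0.11 for Remak and 0.26 for repair Schwann cells, 0.32 for cholesterol synthesis and 0.56 for adipocytes. Medians were 0.0495 for muscle, 0.0796 for meninges, -1.92 for lymphocytes, -1.67 for neutrophils and -2.18 for erythroid genes. Immediate early genes stood at 0.27, heat shock at -0.40, cell cycle at -0.31 and sex-linked genes at -0.0292. Under the block 3 of the reported genes within the naming rule changed sign: Cilp (0.36), Mfap4 (0.18) and Cartpt (0.35). With the block and class, treatment called 0 genes higher and 0 lower in edgeR, and Scn9a stood at -1.20. At an unadjusted p under 0.05 that edgeR fit held 512 genes. DESeq2 with class and without the block called 29 genes at an adjusted p under 0.05, and 1122 had an unadjusted p under 0.05. In the neuron-rich libraries the block gave 3 higher and 2 lower.

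A limit of 1.5-fold counted 1207 genes as higher and 1533 as lower, and one of 4-fold 8 and 24. The 1127 counted genes kept their sign under every other setting run.

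Leaving out each library in turn gave 409 to 756 genes counted as higher and 532 to 1174 as lower. List medians ran from -1.02 to -0.80 for other neuronal genes, -0.89 to -0.28 for peptidergic nociceptors and -0.92 to -0.67 for sodium channels. They ran from -0.49 to -0.32 for satellite glia, 0.12 to 0.65 for Remak and 0.24 to 0.78 for repair Schwann cells. The ranges were -1.11 to -0.58 for the node, 0.0191 to 0.22 for cholesterol synthesis and 0.25 to 0.46 for endothelium. Fibroblasts ran from 0.61 to 1.17, perineurium from 0.14 to 0.47 and adipocytes from 0.0401 to 0.32. Muscle ran from -2.17 to -0.0677, meninges from -2.88 to -1.06 and erythroid genes from -1.71 to -0.40. Nerve injury genes ran from -0.73 to -0.00033, lymphocytes from -2.23 to -0.30 and neutrophils from -2.10 to 0.12. Immediate early genes ran from 0.19 to 0.85, heat shock from -0.87 to -0.50 and cell cycle from -0.13 to 1.06. Interferon-stimulated genes ran from 0.0490 to 0.71 and sex-linked genes from -0.0109 to 0.23. The sex-linked median was -0.0109 without PBS 4. With class as a covariate, treatment called 0 to 3 genes higher and 0 to 2 lower, and Scn9a ran from -1.31 to -1.10. In the neuron-rich libraries it called 0 to 1 higher and 0 to 1 lower, and Scn9a ran from -1.22 to -0.88.

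Without a filter on low counts treatment called 4 genes higher with class, and 3 lower in the neuron-rich libraries, where Scn9a at -1.10 then passed. DESeq2 called 27 higher and 2 lower with class, and 16 higher and 21 lower in the neuron-rich libraries, where Scn9a (-1.10) passed. With the mean of the 20 genes as covariate in place of the class, 0 genes were higher and Scn9a passed alone. The cause of these changes was not tested.

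Limits: 3 neuron-poor libraries, 1 of them treated, and classes set by the data bound what the class differences can show.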
